A study of Mus musculus with 8 samples.

Results

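The genes described here encode the NF-kB transcription factors and the IkB proteins that bind them. The rule took every probe set of the array whose platform gene symbol was Nfkb1, Nfkb2, Rel, Rela, Relb, Nfkbia, Nfkbib, Nfkbie, Nfkbiz or Bcl3. It found 18 probe sets among 45037, for 9 of the 10 genes, and Nfkb1 was not analysed here. Of the 18, 17 were bright enough to be tested, and all 9 genes had at least 1 of these.

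The cells were bone marrow pro-B cells of Fraction B, an early B-cell progenitor stage, sorted by the surface phenotype B220+ CD43+ HSA+ BP-1-. The control group was 4 samples from MenF/F mice, which carry floxed alleles of Men1 and no Cre, and the menin-deficient group was 4 samples from Rag1-cre;MenF/F mice, so that both groups carried the floxed alleles. The labels call these biological replicates and do not say whether a sample pooled mice, so p-values measure the spread between these samples. The sample labels give an age of 2 to 3 weeks, and each sample gave 1 Affymetrix array with values on a log2 scale; values below are given in the order of replicates 1 to 4. Men1 encodes menin, a nuclear protein that works with the MLL histone methyltransferase, and the comparison asked which genes depend on it. Since the Cre, named for Rag1, was present in the whole menin-deficient group and absent from the control group, what it does by itself cannot be told apart from the loss of menin. Bulk RNA cannot tell fewer cells of a type from less RNA per cell.

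NF-kB factors are dimers of proteins that share the Rel homology domain. RelA (gene Rela), c-Rel (Rel) and RelB carry a transactivation domain, whereas p105 (Nfkb1) and p100 (Nfkb2) are precursors that are processed to the DNA-binding subunits p50 and p52. In resting cells IkB proteins hold the dimers in the cytoplasm, until IkB kinase marks them for ubiquitination and destruction. IkB alpha (Nfkbia), IkB beta (Nfkbib) and IkB epsilon (Nfkbie) are such cytoplasmic inhibitors, and Nfkbia is itself a target of NF-kB that shuts the response down again. IkB zeta (Nfkbiz) and Bcl-3 are nuclear relatives that modulate transcription by NF-kB dimers. NF-kB was named for its binding to the immunoglobulin kappa enhancer in B cells.

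The targeted gene checked the labels. On its brightest probe set Men1 read 9.59, 9.19, 9.58 and 9.81 in the control group and 7.85, 8.24, 8.50 and 8.03 in the menin-deficient group, and so fell by 1.39 on the log2 scale (adjusted p = 0.00391 in limma, SE 0.18). The mean log2 value of 11 tested B-progenitor markers lay between 14.01 and 14.30 on all 8 arrays, and 4 of the 11 passed the test. Dntt, Igll1 and Blnk rose by 0.35, 0.38 and 0.39, and Rag1, whose name the Cre carries, fell by 0.28 (adjusted p = 0.00442, 0.0457, 0.0466 and 0.0326). Dntt passed whichever array was left out. Its other probe sets, however, differed by 0.23 and -0.44 without passing (adjusted p = 0.0664 and 0.0727 in the limma fit of all probe sets). With its probe sets averaged, Dntt differed by 0.04 (adjusted p = 0.612). Igll1 was lost without any array but control replicate 3, Blnk without any but control replicates 2 and 4, and Rag1 without any but control replicate 2 and menin-deficient replicate 3 (adjusted p up to 0.103, 0.1175 and 0.089). After centring Dntt and Rag1 passed and the other two did not. Among 11885 genes tested, 2536 (21.3%) passed an adjusted p of 0.05, 614 lower (5.17%) and 1922 higher (16.2%) in menin-deficient cells. Leaving out control replicate 1 brought that total to 1609, and leaving out menin-deficient replicate 2 to 1410. Menin-deficient arrays ran high as a whole, by 0.11 for the median gene, and subtracting each array's own median over tested genes (centring, below) took 0.13 off every gene's difference, and 0.06 in the fit of all probe sets.

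Nfkbia was lower in menin-deficient pro-B cells, and it was the sole member to pass the test. With 1 probe set for each gene, the one with the highest mean, 1 of 9 members fell, 0 rose and 8 did not pass. That count was 2 without control replicate 2 and after centring, when Bcl3 passed as well. Over all probe sets, 4 of the 17 fell and 0 rose, all 4 of them for Nfkbia, where 14.2% of all tested probe sets passed in either direction and 4.87% as falls. The median difference over the 9 genes was -0.04, against 0.11 for all genes tested.

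The brightest Nfkbia probe set, 1438157_s_at, read 15.65, 15.40, 15.45 and 15.44 in the control group and 14.88, 14.84, 14.97 and 15.15 in the menin-deficient group. Every menin-deficient array lay below every control array. The gene was 1.44-fold lower, with a log2 difference of -0.53 (95% interval -0.73 to -0.33, SE 0.09, adjusted p = 0.00805 in limma). The suffix _s_at marks probe sets that can match several transcripts, so the plain probe sets of the gene matter for this call.

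Of these, 1420088_at went from 14.42, 14.36, 14.46 and 14.26 in control to 13.27, 13.14, 13.47 and 13.52 in menin-deficient arrays. This is a larger difference than on the brightest probe set, 2.04-fold lower (log2 difference -1.03, SE 0.09, adjusted p = 0.00248 in the limma fit of all 26790 probe sets). Probe set 1420089_at was dim, and read 6.27, 6.22, 5.58 and 6.18 in control against 5.28, 4.71, 4.75 and 4.99 in menin-deficient arrays. Its groups did not overlap either, and it fell by 1.13 on the log2 scale (SE 0.20, adjusted p = 0.0138).

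Another probe set of the several-transcript kind, 1449731_s_at, had the largest difference of any member. It read 13.75, 13.73, 13.40 and 13.55 in control arrays and 12.41, 12.19, 11.88 and 12.48 in menin-deficient arrays, which is 2.58-fold lower (log2 difference -1.37, SE 0.15, adjusted p = 0.00398). The smallest was on 1448306_at, the one Nfkbia probe set to which the platform annotation ties the RefSeq transcript. It read 13.71, 13.39, 13.30 and 13.48 in control and 12.94, 13.10, 13.14 and 13.23 in menin-deficient arrays, with groups that did not overlap but a log2 difference of -0.37 that did not pass (95% interval -0.61 to -0.13, adjusted p = 0.0562). It passed under 6 of 19 alternatives, centring among them (-0.43, adjusted p = 0.0355).

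The 5 probe sets ran from 1.29-fold to 2.58-fold lower. Between the extremes, 1449731_s_at minus 1448306_at ran from 0.03 to 0.34 in control arrays and from -1.27 to -0.53 in menin-deficient arrays. This pair was chosen for its difference, which was not tested. Which part of the Nfkbia transcript each probe set reads was not analysed here. All 5 probe sets were lower without overlap between groups, as were 6.88% of the 22200 tested probe sets with 1 gene symbol. By a count made after the values were seen, 465 genes had at least 5 tested probe sets, and 3 of these, Nfkbia, Pde7a and Sypl, had at least 4 that fell. Nfkbia and Mef2c were the 2 genes among the 465 in which every probe set was lower without overlap. The limits of both counts were taken from Nfkbia itself, so its own place in them was fixed beforehand. Probe sets of 1 gene are also not independent measurements.

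**Figure D1:**
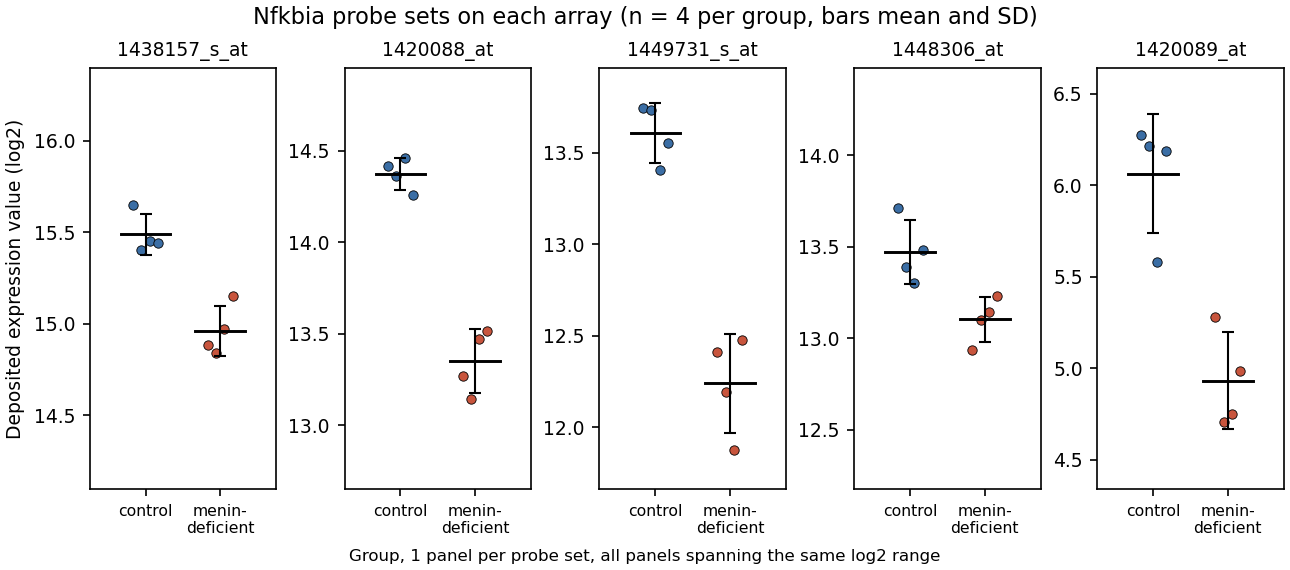
Deposited log2 expression values of the 5 Nfkbia probe sets (vertical axes, 1 panel each, all spanning the same log2 range) in 4 control and 4 menin-deficient arrays. Points are arrays and bars the mean and SD. In every panel the menin-deficient arrays lie below the control arrays, by -1.37 on 1449731_s_at and by -0.37 on 1448306_at.

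The promoter of Nfkbia is shown because the gene is a known NF-kB target and the member that fell. The sequences below, from RefSeq with build GRCm38.p6, give the 250 bases before the annotated start of the 4 members that hold the kappa B consensus there. That consensus is GGG, a purine, any 2 bases, 2 pyrimidines and CC. It was searched on both strands, and matches are in capitals.
Nfkbia (chr12:55492648-55492897, minus strand): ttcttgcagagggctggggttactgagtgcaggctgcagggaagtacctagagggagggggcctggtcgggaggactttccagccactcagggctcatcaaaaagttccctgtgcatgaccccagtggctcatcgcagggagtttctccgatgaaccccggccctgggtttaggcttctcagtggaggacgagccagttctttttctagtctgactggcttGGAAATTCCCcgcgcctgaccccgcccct
Rel (chr11:23770970-23771219, minus strand): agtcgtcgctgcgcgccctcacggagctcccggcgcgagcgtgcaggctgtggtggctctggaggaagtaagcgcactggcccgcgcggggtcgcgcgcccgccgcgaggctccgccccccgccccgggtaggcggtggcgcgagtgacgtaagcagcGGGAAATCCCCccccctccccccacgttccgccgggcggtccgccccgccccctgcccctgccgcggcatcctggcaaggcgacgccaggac
Nfkb2 (chr19:46304487-46304736, plus strand): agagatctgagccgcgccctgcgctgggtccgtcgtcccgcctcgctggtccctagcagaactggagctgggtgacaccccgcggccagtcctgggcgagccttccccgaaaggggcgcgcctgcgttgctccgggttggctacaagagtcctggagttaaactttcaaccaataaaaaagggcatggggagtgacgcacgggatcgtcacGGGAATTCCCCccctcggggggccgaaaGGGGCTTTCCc
Nfkbie (chr17:45555450-45555699, plus strand): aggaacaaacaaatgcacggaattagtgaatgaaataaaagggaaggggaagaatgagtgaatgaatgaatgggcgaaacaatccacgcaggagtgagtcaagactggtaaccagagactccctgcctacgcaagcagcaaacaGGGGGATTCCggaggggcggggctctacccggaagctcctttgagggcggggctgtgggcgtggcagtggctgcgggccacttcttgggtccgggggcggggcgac
Of 7 members with a promoter in the table used, 4 held a match, against 8.23% of 27025 genes and 10.7% of the 9689 tested genes with a promoter. With the base before the start counted as -1, the match in Nfkbia ran from -29 to -20. In Rel, where matches on both strands overlap, the capitals ran from -92 to -82. Nfkb2 has 3 annotated starts, each with a match: the first, shown here, had stretches from -39 to -29 and from -11 to -2, and the others, not shown, from -236 to -227 and from -225 to -216. In Nfkbie the match ran from -106 to -97. The promoters of Bcl3, Nfkbib and Rela held none. Of the 4 genes that share the motif, Nfkbia fell and the other 3 did not pass the test. A match describes the letters only.

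Among the Rel proteins no member passed the test, and none had groups that stood apart. Rela, the activating subunit of the main NF-kB dimer, read 11.76, 11.75, 11.87 and 11.63 in control and 11.68, 11.64, 11.79 and 11.73 in menin-deficient arrays. It differed by -0.04 (adjusted p = 0.673 in limma, SE 0.06), and the 95% interval of -0.18 to 0.10 does not reach the -0.53 of Nfkbia. The interval of Rela was the narrowest of the 4 Rel genes, though those of the others did not reach -0.53 either.

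Rel encodes c-Rel, which is prominent in lymphocytes. It read 8.77, 8.14, 8.25 and 8.73 in control and 8.28, 8.67, 8.50 and 8.62 in menin-deficient arrays, a log2 difference of 0.05 with a wide interval of -0.35 to 0.45 (adjusted p = 0.885). The control arrays alone covered the whole range of the menin-deficient arrays, and after centring the sign turned (-0.08).

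Relb encodes the partner of p52 in the non-canonical pathway. It read 9.74, 9.41, 9.60 and 9.34 in control and 9.20, 9.57, 9.88 and 9.61 in menin-deficient arrays (log2 difference 0.04, 95% interval -0.32 to 0.41, adjusted p = 0.881). Here the menin-deficient arrays spread more widely and held both the lowest and the highest value; here too centring turned the sign (-0.08).

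Nfkb2, the p100 precursor, read 10.60, 10.50, 10.75 and 10.44 in control and 10.47, 10.35, 10.70 and 10.38 in menin-deficient arrays on its brighter probe set (log2 difference -0.10, 95% interval -0.33 to 0.13, adjusted p = 0.502). Its groups overlapped throughout. A dimmer _x_at probe set, which like _s_at sets may bind other transcripts, differed by 0.21 the other way (adjusted p = 0.573 over all probe sets), with control replicate 2 low at 6.91 and the other 3 control arrays at 7.57 to 7.63.

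**Figure D2:**
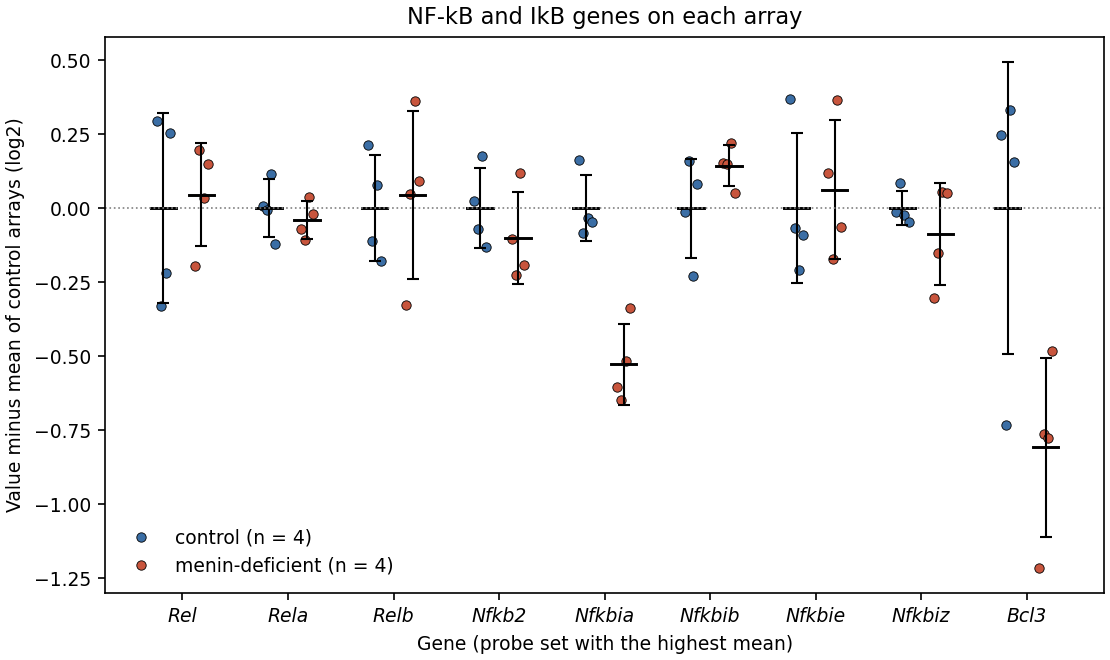
Value of each array minus the mean of the control arrays (log2, vertical axis) for the brightest probe set of the 9 genes (horizontal axis), 4 control and 4 menin-deficient arrays each, with mean and SD. Menin-deficient arrays stand clear of the control arrays in Nfkbia, and in Bcl3 control replicate 2 lies among the menin-deficient arrays.

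The other cytoplasmic inhibitors did not share the fall of Nfkbia past the test. Nfkbib read 9.77, 9.94, 9.56 and 9.87 in control and 9.94, 9.93, 10.01 and 9.84 in menin-deficient arrays, a log2 difference of 0.14 (SE 0.09, 95% interval -0.06 to 0.35, adjusted p = 0.281). Of the menin-deficient arrays 1 lay above the highest control array and 3 within the control range. Its second probe set, 1446718_at, sat at the lowest value of the table (2.08) on all 8 arrays and was not tested.

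Nfkbie read 12.45, 12.01, 11.87 and 11.99 in control and 12.20, 11.91, 12.44 and 12.01 in menin-deficient arrays on its brighter probe set. The groups overlapped, with a log2 difference of 0.06 (95% interval -0.32 to 0.44, adjusted p = 0.823) that was -0.06 after centring. On 1431843_a_at it read 11.08, 10.62, 10.76 and 10.48 in control and 10.99, 11.05, 11.32 and 11.12 in menin-deficient arrays. That difference of 0.39 missed the threshold over all probe sets (adjusted p = 0.112), and was 0.50 with an adjusted p of 0.0436 without control replicate 1, the highest control array.

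For the nuclear members the picture was mixed. Nfkbiz, which codes for IkB zeta, read 11.97, 12.07, 11.96 and 11.94 in control and 11.68, 11.83, 12.04 and 12.04 in menin-deficient arrays on its brightest probe set (log2 difference -0.09, 95% interval -0.29 to 0.12, adjusted p = 0.515). Its 4 control arrays were closely grouped, and 2 menin-deficient arrays lay below them and 2 among them. Probe set 1457404_at pointed the other way, with 7.81, 7.21, 7.88 and 8.25 in control and 8.16, 8.31, 8.43 and 8.77 in menin-deficient arrays, a difference of 0.63 that did not pass (95% interval 0.08 to 1.18, adjusted p = 0.122). The third, 1448728_a_at, differed by 0.02.

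Bcl3, whose product acts with p50 and p52 dimers, had a larger difference than the brightest Nfkbia probe set and a larger spread. It read 5.78, 4.80, 5.87 and 5.69 in control and 4.32, 4.77, 4.76 and 5.05 in menin-deficient arrays. Control replicate 2 lay among the menin-deficient arrays and apart from the other controls. The log2 difference of -0.81 (SE 0.27, 95% interval -1.44 to -0.18) did not pass (limma adjusted p = 0.0722). It was -1.05 with an adjusted p of 0.0139 without control replicate 2, and -0.93 with an adjusted p of 0.0364 after centring, in a range over 19 alternatives of 0.0139 to 0.161. Bcl3 has a single probe set on this array, so no second one could be set beside it.

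**Figure D3:**
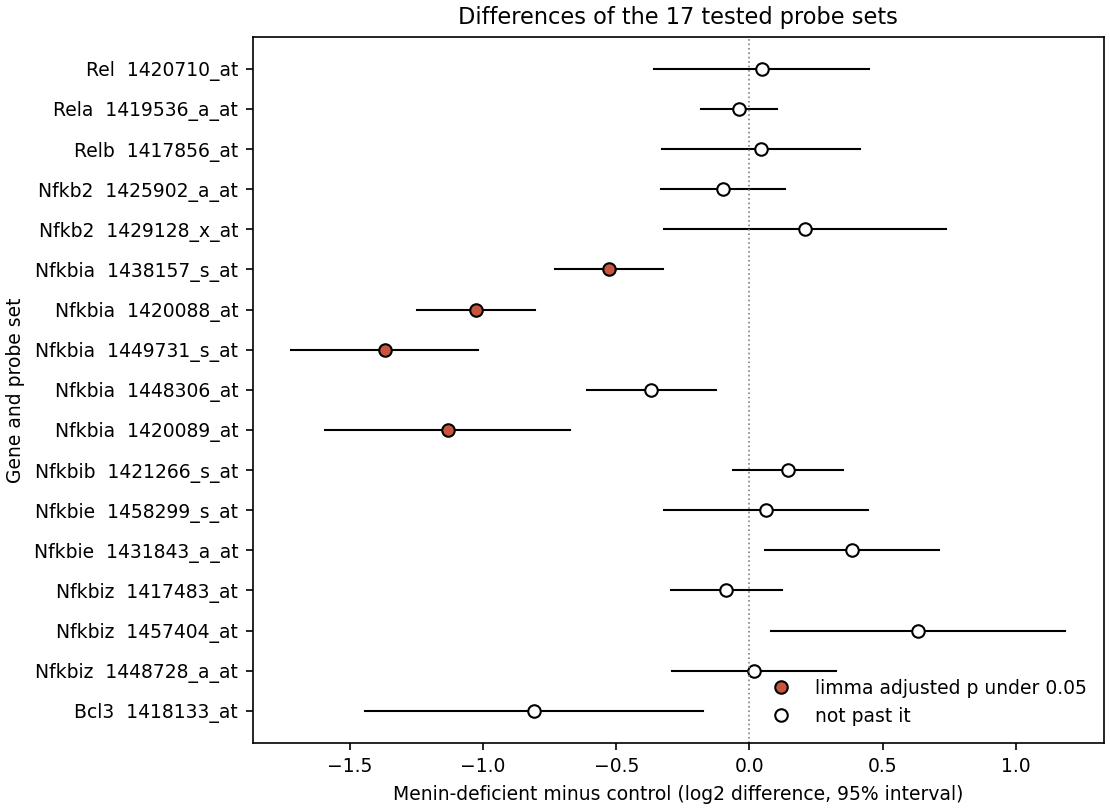
Log2 difference between menin-deficient and control arrays (horizontal axis) with its 95% interval for the 17 tested probe sets, by gene. Filled points passed a limma adjusted p of 0.05 in the fit of all probe sets. The 4 filled points are Nfkbia probe sets at -0.53, -1.03, -1.37 and -1.13, and the interval of Bcl3 runs from -1.44 to -0.17.

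Genes whose pattern over the 8 arrays was most like that of Nfkbia were sought among the other 11884 tested genes, by the root mean square difference of log2 values centred on each gene's own mean. The nearest was Smad4 (0.0624), which encodes the common mediator of TGF-beta signalling, followed by Pde7a (0.0729), a cAMP phosphodiesterase, and Coq10b (0.0750), a coenzyme Q binding protein. Their log2 differences were -0.44, -0.57 and -0.53 (limma adjusted p = 0.0114, 0.0143 and 0.00532). The search compared values over both groups, so differences near that of Nfkbia followed from the choice and are no separate result. The Coq10b probe set is of the _s_at kind, and without such sets the gene differed by 0.0666 (adjusted p = 0.844). With the probe sets of each gene averaged, Smad4 differed by -0.12 and Coq10b by -0.23, neither past the test (limma adjusted p = 0.358 and 0.1295).

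Beyond the members, 6 lists of other genes of the pathway were examined, from ligands to targets. Their 84 tested genes held 16 that rose, 6 that fell and 62 that missed the threshold, which is 26.2% past the test against 21.3% of all genes. Their median difference was 0.16, against 0.11 over all genes. The split depended on scaling: after centring, 7 were higher and 10 lower. The count of 22 became 14 when either control replicate 1 or menin-deficient replicate 2 was left out.

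Of 7 tested ligands 1 rose and 0 fell, and some of the others lay near the lowest value of the table in both groups. Tnfsf11, which encodes RANKL, went from 6.57 ± 0.352 to 7.62 ± 0.186 (log2, SD, n = 4 each), which is 2.07-fold higher (adjusted p = 0.0104). Tnf itself was dim in both groups (3.57 and 3.64) and differed by 0.06 (adjusted p = 0.440). Ltb, encoding lymphotoxin beta, differed by 0.22 (adjusted p = 0.0698), by 0.10 after centring, and by 0.28 without control replicate 1 (adjusted p = 0.0216).

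Receptors changed in both directions, 3 of 15 higher and 1 lower. Tlr2, a Toll-like receptor, rose 1.57-fold (log2 difference 0.65, SE 0.09, adjusted p = 0.0045), Tnfrsf1b, the second TNF receptor, rose 1.67-fold and Il1rap, the accessory chain of the IL-1 receptor, rose 1.73-fold. Cd40, the receptor for T-cell help to B cells, fell by 0.75 on the log2 scale (adjusted p = 0.0206) on its brightest probe set, 10.72 ± 0.317 to 9.97 ± 0.159 (SD, n = 4 each). Its second probe set fell by 0.76 (adjusted p = 0.0203 over all probe sets), but both are of the _s_at kind, and its other probe set differed by -0.48 without passing (adjusted p = 0.312). The Cd40 call was lost without control replicate 1 or 4 or menin-deficient replicate 2 or 3 (adjusted p = 0.0543, 0.0529, 0.0617 and 0.0501). After centring these 4 genes still passed, and 3 receptors were higher and 3 lower. For Tnfrsf1b another probe set lay near background and differed by 0.03, and for Il1rap another differed by 0.46 without passing. Il1rap itself no longer passed without control replicate 1, 2 or 4 or menin-deficient replicate 1 or 2 (adjusted p = 0.0766, 0.0613, 0.0702, 0.0651 and 0.083).

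Of 20 adaptors and kinases 5 rose and 1 fell. Ikbke, which encodes the IkB kinase relative IKK epsilon, rose 1.93-fold, from 7.22 ± 0.215 to 8.17 ± 0.297 (log2, SD, n = 4 each, adjusted p = 0.011). The canonical kinase subunits Ikbkb and Ikbkg differed by 0.14 and 0.04 on their brightest probe sets, neither past the test. However, on 1 dimmer probe set each Ikbkb rose by 0.68 and Ikbkg by 0.26, without overlap between groups (adjusted p = 0.0326 and 0.0307 over all probe sets), while their other tested probe sets differed by -0.48 to 0.40 and by -0.12 to 0.40 without passing. The Ikbkb call was lost without any array but control replicate 4 and menin-deficient replicate 1 (adjusted p up to 0.0809). The Ikbkg call was lost without any but control replicates 2 and 4 and menin-deficient replicate 3 (up to 0.0847), and after centring (0.083). Myd88, the adaptor of Toll-like and IL-1 receptors, rose 1.32-fold and Traf6, a ubiquitin ligase of the same route, rose 1.27-fold, calls that were lost after centring (adjusted p = 0.111 and 0.126). Single arrays also ended them: control replicate 1, 3 or 4 or menin-deficient replicate 2 for Myd88 (adjusted p without it = 0.0663, 0.0544, 0.0608 and 0.0525), and control replicate 1, 2 or 3 for Traf6 (0.0623, 0.051 and 0.0544). Traf6 is a protein-coding neighbour of Rag1 in RefSeq, the gene that the Cre is named for, and its other tested probe sets differed by 0.45, -0.17 and -0.15 without passing. Tab2, an adaptor of the kinase TAK1, fell by 0.38 on its brightest probe set and differed by 0.01 on the other.

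Among 11 genes of the IkB ubiquitin ligase and other nuclear factors, 1 rose and 1 fell. Commd1, a nuclear brake on RelA, fell by 0.57 (adjusted p = 0.0116) on its brighter probe set and rose by 0.41 (adjusted p = 0.0331 over all probe sets) on the other, an _s_at set, so that no direction can be given for the gene. Pdlim2, a ligase that targets nuclear RelA, rose 1.33-fold, a call lost after centring (adjusted p = 0.0882) and without menin-deficient replicate 2 (0.0545). Btrc, the subunit that recognises phosphorylated IkB, differed by -0.00479 on its brightest probe set (adjusted p = 0.993). Another went from 8.32 to 7.72 without overlap, a difference of -0.60 that did not pass (adjusted p = 0.0687 over all probe sets), though it passed after centring (0.0455) and without menin-deficient replicate 1 (0.0459). The remaining tested probe sets differed by 0.31 and -0.14. Nfkbid, a further nuclear IkB protein outside the rule, differed by -0.50 without passing (adjusted p = 0.134).

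Of 10 negative regulators 2 rose and 1 fell. Otulin, a deubiquitinase of linear chains, rose 1.31-fold and Otud7b, another deubiquitinase, rose 1.30-fold, both lost after centring (adjusted p = 0.0532 and 0.0889). The other 3 Otud7b probe sets differed by 0.12, 0.01 and 0.10, none past the test. Itch, a ubiquitin ligase, fell by 0.38, a call lost without any one of 7 of the 8 arrays, all but control replicate 2 (adjusted p = 0.0547 to 0.106), and its other tested probe sets differed by -0.70, 0.06 and 0.03 without passing. Tnfaip3, which encodes A20 and is like Nfkbia a feedback inhibitor induced by NF-kB, read 12.30, 12.19, 12.54 and 12.21 in control and 12.36, 12.73, 12.78 and 12.78 in menin-deficient arrays. Its difference of 0.35 (95% interval 0.07 to 0.64, adjusted p = 0.0828) did not pass, and was 0.45 with an adjusted p of 0.0231 without menin-deficient replicate 1, the lowest of its group.

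Of 21 tested known NF-kB targets 4 rose and 2 fell, while 15 missed the threshold. That is 28.6% past the test, against 21.3% of all genes. Their median difference was 0.18, against 0.11 over all genes. Ebi3, a subunit of IL-27 and IL-35, rose 1.94-fold (adjusted p = 0.00493) and Irf1, an interferon regulatory factor, rose 1.49-fold (adjusted p = 0.0108). Bcl2l1, the survival gene for Bcl-xL, fell by 0.42 on its brightest probe set, but another, dim one differed by 0.50 the other way. Cd69, an activation marker, fell by 0.51. After centring 2 targets were higher and 3 lower. Irf1 is also known as an interferon target.

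**Figure D4:**
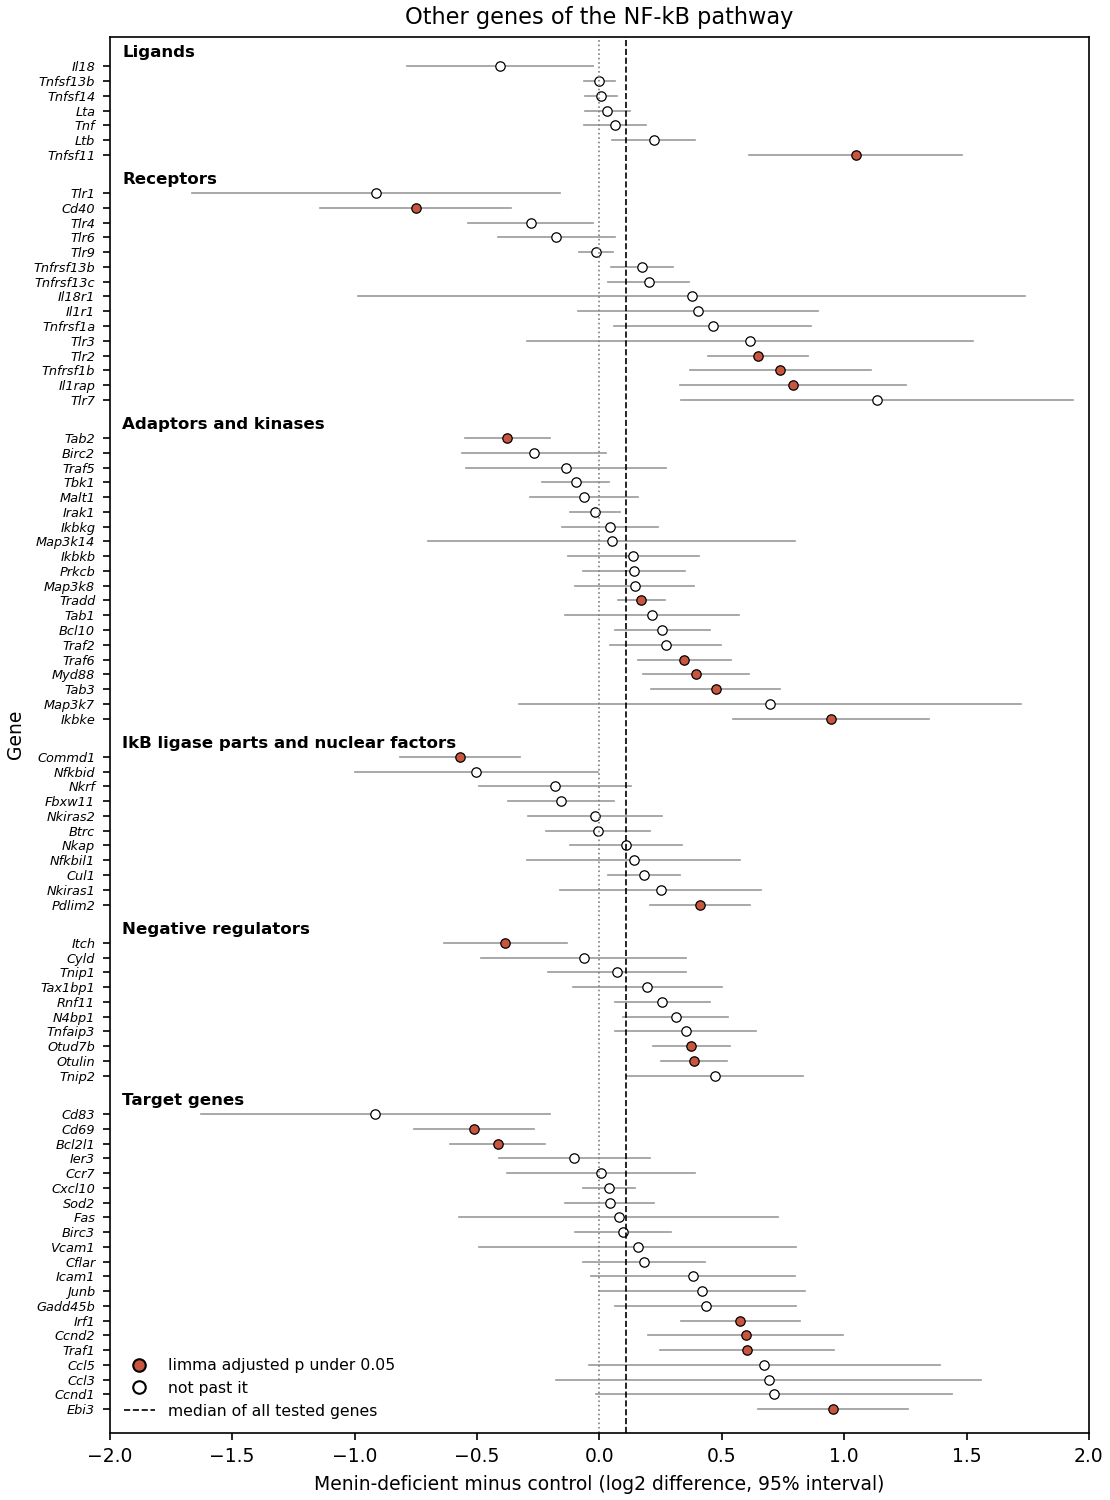
Log2 difference between menin-deficient and control arrays (horizontal axis) with its 95% interval for the 84 tested genes of 6 pathway lists. Filled points passed a limma adjusted p of 0.05 and the dashed line is the median of all tested genes (0.11). Rises and falls stand side by side in most lists, with Tnfsf11 at 1.05 and Cd40 at -0.75.

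Markers of some other blood cells differed between these groups, where 21.3% of all tested genes passed, 16.2% as rises. The monocyte list (25.0% past the test) and the plasmacytoid dendritic list (22.2%) lay near that share. The T-cell list (83.3%), plasma-cell list (50.0%) and NK-cell list (37.5%) lay above it, as did the B-progenitor list (36.4%). Of 12 T-cell markers 6 were tested, and 5 of these rose. The mean of the 6 ran from 5.71 to 5.91 in control and from 7.00 to 7.26 in menin-deficient arrays. Thy1 rose by 2.65, Lat by 1.76, Cd5 by 1.33 and Cd28 by 0.98. Cd28 was dim (means 2.49 in control and 3.47 in menin-deficient arrays), and its other probe set lay at the lowest value of the table on all 8 arrays. Of the CD3 chains of the T-cell receptor complex, Cd3g was dim and rose by 0.78, from 3.95 to 4.73 (adjusted p = 0.0309), whereas Cd3e lay at the lowest value of the table on all 8 arrays and Cd3d on 7. Cd8b1 lay there on all 8. Of 8 NK-cell markers 3 rose, Ncr1 by 1.41, Gzmb by 1.14 and Nkg7 by 0.91 (list mean 6.03 to 6.39 in control, 6.74 to 7.46 in menin-deficient arrays). Of 8 monocyte markers 2 rose, Lyz2 by 0.77 and Ccr2 by 0.60 (6.33 to 6.74 and 6.22 to 7.52). Of 9 plasmacytoid dendritic cell markers 2 rose, Ccr9 by 1.65 and Irf7 by 1.10 (7.54 to 7.74 and 7.88 to 8.29). Single arrays ended some of these calls: Nkg7 and Gzmb were lost without any array but control replicate 2 and menin-deficient replicate 1 (adjusted p up to 0.0619 and 0.091), Lyz2 without any but control replicate 3 and menin-deficient replicate 1 (up to 0.0988), and Cd3g without any but control replicate 1 and menin-deficient replicate 3 (up to 0.0764). Of 8 neutrophil markers (8.73 to 9.32 and 9.09 to 9.83) none passed, Ltf differing by 0.77 and Ngp by 0.37, nor did any of 3 erythroid markers, Epor differing by 0.40 and Klf1 by 0.22. Of 6 plasma-cell markers 3 passed the test: Sdc1 fell by 1.16, Jchain fell by 2.85 and Mzb1 rose by 0.34. The Sdc1 value came from an _x_at probe set. Its other tested probe sets differed by -0.39 without passing and by -0.70 past the test (adjusted p = 0.0588 and 0.0137 in the limma fit of all probe sets). The Mzb1 call was lost after centring (adjusted p = 0.0698), which left 0 of the list higher and 2 lower. Centring also ended the calls of Lyz2 and Cd3g (adjusted p = 0.0597 and 0.052). None of the 4 tested sort markers passed on its brightest probe set. The 2 of lowest p, Ptprc and Cd24a, differed there by -0.13 and -0.06. The other Ptprc probe set differed by -0.72 (adjusted p = 0.0400 over all probe sets), and those of Cd24a by -0.13 and -0.66 without passing. With probe sets averaged, both genes passed as lower, by -0.43 and -0.28 (limma adjusted p = 0.00715 and 0.0296). The part of such cells in the rises of Tnfsf11, Tlr2, Ikbke and Irf1, or in the fall of Nfkbia, was not tested.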

How the data were processed

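The deposited values are log2 expression values, 1 per probe set and array, with 17.4 as the highest; the scale was read from the values. Per the submitters' processing notes both MAS5 and GCRMA were used, with no version, and the sources used here do not give which method made this table. Between 37.1% and 37.5% of probe sets lay within 0.001 of the lowest value on each array, so folds of dim probe sets are approximate, and no detection calls were used. The number of arrays, 4 per group, limits the precision.

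Symbols came from the platform annotation, for probe sets with 1 symbol. A probe set had to exceed the 40th percentile of an array in 4 or more arrays; the 26790 that did were tested one by one, and with the brightest of each gene (11885 genes), with limma 3.58.1 under R 4.3.3 (lmFit, then eBayes), adjusted by Benjamini-Hochberg over all features tested, with a threshold of 0.05. The 40th percentile lay between 2.09 and 2.10, just above the lowest value of 2.08, so some tested genes lay near background. The fit was tested on simulated data. Adjusted p values of genes come from the gene fit unless the fit of all probe sets is named; those of single probe sets come from the latter, except for the brightest of each gene.

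Members and lists were chosen with earlier results of these data known. Text names Men1, all members, and up to 4 genes of lowest p past the test in each pathway or marker list (2 of lowest p where fewer than 2 pass); Tnf, Ikbkb, Ikbkg, Btrc, Nfkbid, Tnfaip3, Sypl, Mef2c, Cd3g, Cd3e, Cd3d and Cd8b1 fall outside this rule and were named after their values were seen. Replicate numbers did not pair the samples (correlations of same-numbered deviations -0.31 to 0.05). Alternatives were another normalization, centring, filters, eBayes options, a block for the replicate number, array weights, sex (1 male control and 2 male menin-deficient samples by Xist and Eif2s3y) as a covariate, a threshold of 0.10, exclusion of _x_at and _s_at probe sets, averaging the probe sets of a gene, and leaving out each array. Plots used matplotlib 3.10.9.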

Additional observations from a re-analysis of the deposited data

Results flagged for a closer look

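In 15 of 142 groups examined, 1 array lay far from the remaining 3, over the members' tested probe sets and the brightest probe set of every other gene named by the rule, most like Nfkbia or added for its part in the pathway, with Cd3g. Chance gives about 1 in 20 groups. Control replicate 2 was low for Bcl3 (4.80, the others 5.69 to 5.87) and for the _x_at probe set of Nfkb2 (6.91, the others 7.57 to 7.63), and high for Myd88 (11.52, the others 11.20 to 11.23). Control replicate 3 was low for the dimmest Nfkbia probe set (5.58, the others 6.18 to 6.27). Menin-deficient replicate 3 was high for Myd88 (11.86, the others 11.61 to 11.64), and menin-deficient replicate 1 was low for Bcl2l1 (10.33, the others 10.48 to 10.49) and Tnfaip3 (12.36, the others 12.73 to 12.78). For Smad4, control replicate 1 was high (13.53, the others 13.34 to 13.36), as was menin-deficient replicate 4 (13.16, the others 12.87 to 12.91). Among markers, control replicate 3 was low for Igll1 (15.44, the others 15.87 to 15.89) and high for Cd24a (16.27, the others 16.00 to 16.02), control replicate 2 was high for Epor (6.80, the others 6.09 to 6.14), and menin-deficient replicate 3 was low for Jchain (5.25, the others 6.42 to 6.56). For Cd28 (control replicate 1, 2.51, the others all 2.49) and Tnf (menin-deficient replicate 2, 3.637, the others all 3.636) the other 3 arrays held 1 value.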

How the results depend on the processing

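In the gene fit Nfkbia and Men1 kept their direction and passed the test under all 20 alternatives, with differences of -1.03 to -0.47 and of -1.51 to -1.04. No Rel member, Nfkbib, Nfkbie or Nfkbiz passed under any of these in the gene fit. The count of changed members, 1 as reported, was 2 after quantile normalization, 2 after centring, 2 with array weights, 2 at a threshold of 0.10, and 1 to 2 with an array left out; the second gene was Bcl3. Of the members' 17 probe sets, 4 passed as reported, 2 without _x_at and _s_at probe sets, which removes some of those tested, and 4 to 5 with an array left out. The 22 changed pathway genes became 37 at a threshold of 0.10 and 14 to 25 with an array left out, and Bcl2l1 reversed (0.0439, adjusted p = 0.820) when its probe sets were averaged. Without _x_at and _s_at probe sets Igll1 (-0.120) and Coq10b (0.0666) reversed. Over all genes the count of 2536 was 1673 with no filter and 1410 to 2255 with an array left out; over all probe sets 3808 became 1935 with no filter, 5902 at 0.10 and 1786 to 3366 with an array left out (1995 without control replicate 1, 1786 without menin-deficient replicate 2, 2421 without menin-deficient replicate 4). The replicate number was also used as a block, which the check above did not bear out as a pairing. Counts were then 1328 genes, 10 pathway genes, 1083 probe sets and 3 member probe sets. Nfkbia passed in the gene fit (limma adjusted p = 0.0446). Its brightest probe set, 1438157_s_at, did not pass in the fit of all probe sets (limma adjusted p = 0.0614). The cause of these shifts was not tested, beyond the fewer arrays or other number of features that an alternative itself sets. Low signal limits Bcl3 and the dimmest Nfkbia probe set.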

Other observations

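The kappa B consensus was counted in the 250 bases before the start of all tested genes with a promoter in the RefSeq table. It was found in 10.8% of 502 genes that fell, 12.5% of 1531 that rose and 10.3% of 7656 that did not pass, with median GC contents of 60.8%, 59.2% and 59.6%. In the whole list of known NF-kB targets, 21 genes had a promoter in that table, and 9 of them held it (42.9%). These 21 were taken whether tested or not, and the share over all 27025 genes with a promoter was 8.23%. These shares are descriptions, and no test was run on them.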
